A study of Mus musculus with 45 samples.

Results

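The genes described here are 9 maternal chromatin remodelling factors, namely Smarca4, Smarca5, Smarcb1, Chd1, Chd4, Npm2, H1f8, Brwd1 and Ctcf. They were chosen by symbol, by a rule that reads no value from the table, although earlier results of these data were known when they were picked, and all 9 were found among the 26214 genes of the deposited RNA-seq table. The table holds TPM values (transcript abundance as a share of each library, corrected for gene length) for mouse fully grown oocytes (FGOs) and late two-cell embryos. Control FGOs came from H3f3b K36M-flox/+ females and K36M FGOs from H3f3b K36M-flox/+; Gdf9-Cre females, both of hybrid C57BL/6 / 129 strain and collected at 3 to 4 weeks of age. Every FGO group, the controls included, therefore carried the unrecombined or recombined flox allele on 1 of its H3f3b copies, and Cre was driven by the oocyte promoter of Gdf9. The K36M product is a histone H3.3 in which lysine 36 is replaced by methionine, which lowers methylation of that residue. Two-cell embryos were made by in vitro fertilization of superovulated control or K36M oocytes with JF-1 sperm (strain label hybrid C57BL/6 / 129 X JF-1) and were harvested at 31 to 32 h after fertilization. K36M oocyte-derived embryos may have inherited either maternal H3f3b copy, and the genotype of a single embryo was not given.

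There were 3 control and 3 K36M FGO libraries, each from a pool of FGOs, and 7 control and 8 K36M oocyte-derived libraries, each from a single embryo. Control two-cell replicate 4, which the study set aside for a technical problem, stayed out of the main comparisons and was added only as an alternative. TPM does not keep the number of reads behind a value, so no counting interval is given, and the number of libraries sets the precision. The total reads the study lists were higher for every FGO library than for every embryo library. Stage, sequencing depth, pooling, the number of amplification cycles and the cross all changed together between FGOs and embryos and cannot be told apart. TPM is a share of each library, so a changed share and a changed amount of RNA per oocyte or embryo cannot be told apart either. The labels do not say which FGO pools or embryos came from which females, so the p-values measure the spread between libraries only.

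Chromatin remodellers use ATP to slide, evict or space nucleosomes, and the egg stores them as RNA and protein before its own transcription stops. After fertilization these stores act on both parental genomes until the embryo's own genome is activated, which in the mouse is mainly at the late two-cell stage, while much of the maternal RNA is degraded. Smarca4 (BRG1) is the ATPase of the SWI/SNF complex and Smarcb1 (SNF5) a core subunit of it, and Smarca5 (SNF2H) is the ATPase of the ISWI complexes. Chd1 is an ATPase that binds histone H3 methylated at lysine 4, and Chd4 is the ATPase of the NuRD deacetylase complex. Npm2, nucleoplasmin, is an oocyte histone chaperone, and H1f8 (H1foo) is the linker histone of the oocyte. Brwd1 has bromodomains and WD repeats and is needed for oocyte chromatin, and Ctcf is the zinc-finger protein that sets insulators and, with cohesin, chromatin loops.

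Promoter sequences from RefSeq (GRCm38.p6, the assembly of mm10) were found for 7 of the 9 genes, with Npm2 and Chd1 not among them. In the 300 bases around the annotated start (250 before it and 50 after), CG dinucleotides numbered 52 for Brwd1, 47 for Ctcf, 33 for Smarca4, 32 for Smarca5 and 27 for Smarcb1. Chd4 has a pair of annotated starts, with 17 and 29. H1f8 has 5, and 38.0% of the 32841 promoter windows hold fewer, whereas the median window holds 7 and the quartiles are 3 and 20. The 250 bases upstream of H1f8 and of Smarca5 are printed because these genes had the lowest and the highest log2 fold change of the 9 between K36M oocyte-derived and control embryos, given further on, and because their CG content differs so much. Capitals mark CG dinucleotides, 4 in the H1f8 sequence (chr6:115944681-115944930, plus strand) and 29 in the Smarca5 sequence (chr8:80739460-80739709, minus strand), both read 5′ to 3′ in the direction of transcription.
H1f8: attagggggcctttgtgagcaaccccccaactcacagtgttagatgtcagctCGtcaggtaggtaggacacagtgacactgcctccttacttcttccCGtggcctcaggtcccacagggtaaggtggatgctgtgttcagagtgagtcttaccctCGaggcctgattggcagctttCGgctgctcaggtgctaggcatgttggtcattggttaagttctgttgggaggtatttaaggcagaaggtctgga
Smarca5: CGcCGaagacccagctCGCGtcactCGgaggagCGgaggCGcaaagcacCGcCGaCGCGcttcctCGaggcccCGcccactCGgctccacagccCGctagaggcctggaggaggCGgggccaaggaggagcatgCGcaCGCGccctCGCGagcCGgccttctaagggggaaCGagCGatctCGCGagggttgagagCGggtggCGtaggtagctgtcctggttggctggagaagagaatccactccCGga
The E-box letters CANNTG, read on both strands, occur once in the 300-base windows of H1f8 and Smarca4 and once in each Chd4 window, and in none of the other members' windows. They occur in 72.3% of all promoter windows, so a match or its absence describes these letters only.

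The labelled material was checked against marker genes. The 8 oocyte markers (Gdf9, zona pellucida genes and others) summed to 14928 to 15013 TPM in the control FGOs and 12917 to 14114 in the K36M FGOs, and had a median sum of 1003 and 901 TPM in the control and K36M oocyte-derived embryos. The 7 two-cell markers (Zscan4 genes and others) summed to at most 73.9 TPM in any FGO library and at least 215 in any embryo compared. Granulosa and cumulus markers summed to 121 to 135 TPM in control and 131 to 199 in K36M FGOs, with Nr5a2 the highest of them, and all 9 were above 0 in every FGO library. Stroma markers stayed at or below 8.86 TPM and blood markers at or below 3.21 in the FGOs, while 1 K36M oocyte-derived embryo reached 276 TPM of blood markers, mostly Lyz2. H3f3b, the gene that carries the flox allele, had 307, 265 and 308 TPM in the control FGOs and 399, 418 and 377 in the K36M FGOs (log2 fold change 0.44, SE 0.09, limma adjusted p = 0.281). TPM adds up both alleles, so it does not check recombination.

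In the control FGOs, the genes of the oocyte's own chromatin proteins stood far above the other members. H1f8 had 3999, 4355 and 3719 TPM and Npm2 had 3219, 3031 and 3016, which placed them 7th and 11th of all 26214 genes by mean TPM. Together these 2 genes held between 0.673% and 0.739% of all TPM in a control FGO library, out of 0.790% to 0.855% for all 9 members. The other members followed at a much lower level per length: Chd4 at 274 ± 9.7 TPM (mean ± SD, n = 3), Smarca5 at 238 ± 0.66, Smarcb1 at 182 ± 23, Brwd1 at 179 ± 3.6, Ctcf at 149 ± 11, Smarca4 at 122 ± 2.9 and Chd1 at 33.5 ± 8.2. No library of one gene overlapped those of the next in this order, except for Smarcb1 and Brwd1, whose ranges crossed. In the K36M FGOs the order was the same at the top and the bottom, with H1f8 5th and Npm2 13th of all genes, but Smarca5 and Chd4, Brwd1 and Ctcf, and Ctcf and Smarcb1 overlapped as neighbours.

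**Figure D1:**
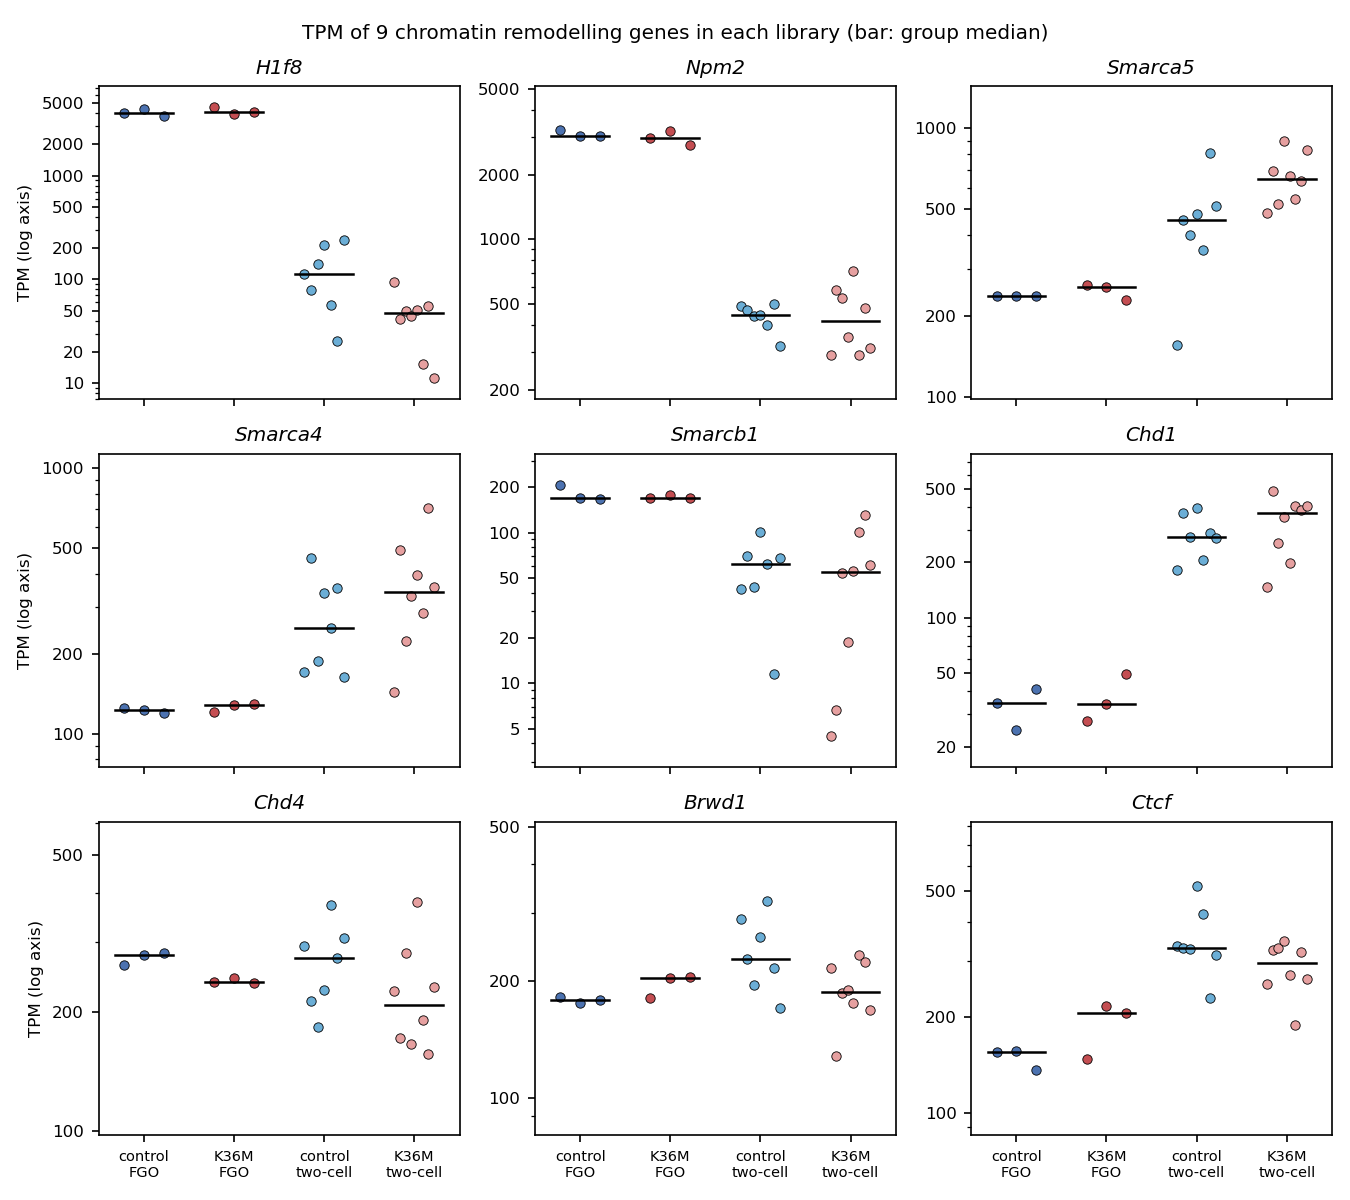
TPM (log axis) of each of the 9 genes in each library of the 4 groups, 1 point per library (3 control FGO, 3 K36M FGO, 7 control two-cell and 8 K36M two-cell), with a bar at the group median. H1f8 and Npm2 are lower, and Chd1 is higher, in every embryo than in every FGO library, whereas Chd4 and Brwd1 overlap between the stages in the control libraries.

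From control FGOs to control two-cell embryos, the 9 genes divided into 3 that rose, 3 that fell and 3 that did not pass the test. Over all genes, 5159 of 16914 tested passed (30.5%), with 15.0% higher and 15.5% lower, and the median log2 fold change was 0.08. The median over the 9 members was 0.39. Log2 fold changes are of TPM + 1, fitted with limma, with p-values adjusted over all genes tested. Each stage fit takes 1 variance per gene over FGOs and embryos. Any FGO library left out gives this variance more weight in the SE, so calls are lost in general, as given at the end.

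The oocyte-restricted pair fell. H1f8 had a lowest, median and highest value of 25.3, 114 and 241 TPM in the 7 control embryos, against 3719 to 4355 in the FGOs. Its mean in the embryos was 3.09% of that in the FGOs, a 32.4-fold lower level, and the log2 fold change was -5.33 (SE 0.56, limma adjusted p = 1.71e-05). Only 0.319% of all genes tested had a lower fold change. Npm2 had 321, 447 and 500.1 TPM (lowest, median, highest) in the embryos, all far below its FGO values of 3016 to 3219. Npm2 was 7.04-fold lower in mean TPM (log2 fold change -2.83, SE 0.17, limma adjusted p = 1.60e-07). In the embryos Npm2 remained among the highest members, at 439 ± 61.7 TPM (n = 7), whereas H1f8 was at 124 ± 80.5. Summed oocyte markers fell over the same comparison, from at least 14928 to at most 1819 TPM. Granulosa and cumulus markers summed to 121 to 135 TPM in the control FGOs and 137 to 257 in the control embryos. Most of this was 1 gene, Nr5a2 (mean 71.0 and 174 TPM). In every control embryo 2 of the 9 markers were above 0, so the sum is no measure of granulosa or cumulus cells there. Genes above 0 TPM made up 66.2% to 70.8% of the table in the control FGOs and 46.2% to 66.1% in the control embryos. The part of these in the stage differences was not tested.

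The 2 SWI/SNF members went opposite ways. Smarca4, the ATPase, had 125, 122 and 119.6 TPM in the control FGOs and 163, 249 and 458 (lowest, median, highest) in the control embryos, with no overlap between the groups (14.5% of all genes tested were higher without overlap and 18.2% lower). Its log2 fold change was 1.05 (SE 0.33, limma adjusted p = 0.0291). This call was lost when control two-cell replicate 4 was added (log2 fold change 0.95, limma adjusted p = 0.0710), under median-of-ratios scaling (0.83, limma adjusted p = 0.0845), with each control FGO library left out (limma adjusted p = 0.0930 to 0.101) and without control two-cell replicate 5 (0.0511). Smarcb1, the core subunit, had 208, 169.5 and 168 TPM in the FGOs and 11.6, 62.0 and 100.5 in the embryos, again with no overlap. It fell by 1.87 on the log2 scale (SE 0.53, limma adjusted p = 0.0169), a 3.20-fold lower mean. Without control FGO replicate 1, 2 or 3 its limma adjusted p was 0.0818, 0.0612 or 0.0588.

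Chd1, the lowest of the 9 in FGOs, rose the most. It had 34.7, 24.7 and 41.0 TPM in the control FGOs and 182, 274 and 395 (lowest, median, highest) in the control embryos. The mean was 8.50-fold higher (log2 fold change 3.03, SE 0.30, limma adjusted p = 9.56e-06), above 93.5% of all genes tested. Chd1 was the 9th of the members in FGOs and the 4th in control embryos by mean TPM. Chd4, the other CHD-type ATPase, had 263, 278 and 282 TPM in the FGOs and 183, 274 and 373 in the embryos. Its log2 fold change was -0.07 with a 95% interval from -0.59 to 0.44, and the embryo values lay on both sides of the FGO values.

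Ctcf had 155, 156 and 136 TPM in the control FGOs and 230.5, 331 and 517 in the control embryos, which did not overlap. It rose by 1.21 on the log2 scale (SE 0.24, limma adjusted p = 0.00252), a 2.38-fold higher mean. Smarca5 had 238, 239 and 238 TPM in the FGOs and 157, 458 and 810.0 in the embryos. Control two-cell replicate 1 was the lowest of these embryos and the only one below the FGOs, and the log2 fold change of 0.79 did not pass (SE 0.37, limma adjusted p = 0.130). Without that embryo it was 1.02 (limma adjusted p = 0.00700). Over all 16 alternatives it ran from 0.36 to 1.02 (limma adjusted p up to 0.493). Brwd1 had 182, 175 and 179 TPM in the FGOs and 171, 228 and 323 in the embryos, with a log2 fold change of 0.39 and a 95% interval from -0.12 to 0.91.

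In K36M material the same comparison of stages was made on other libraries, 3 K36M FGO pools and 8 K36M oocyte-derived embryos. Here 4217 of 16677 genes passed (25.3%), with 9.86% higher and 15.4% lower, and the median log2 fold change was -0.16. Chd1, Smarca4 and Smarca5 rose and H1f8 and Npm2 fell, and the median over the 9 members was -0.07. H1f8 had 4549.9, 3932 and 4134 TPM in the K36M FGOs and 11.1, 47.0 and 95.3 (lowest, median, highest) in the embryos. The embryo mean was 1.08% of the FGO mean, 92.4-fold lower (log2 fold change -6.75, SE 0.53, limma adjusted p = 7.90e-07). Npm2 had 2946, 3192 and 2731 TPM in the FGOs and 289.8, 418 and 713 in the embryos, 6.64-fold lower in the mean (log2 fold change -2.80, SE 0.27, limma adjusted p = 6.24e-06). As in the controls, every embryo was below every FGO library for both genes.

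Among the ATPases, Chd1 had 27.4, 34.2 and 49.6 TPM in K36M FGOs and 146, 369.9 and 487 in K36M oocyte-derived embryos (log2 fold change 3.06, SE 0.38, limma adjusted p = 4.87e-05). Smarca5 had 261, 258 and 229 TPM in the FGOs and 483, 650.0 and 899 in the embryos, with no overlap between the groups (9.41% of all genes tested were higher without overlap and 16.9% lower). It rose by 1.37 on the log2 scale (SE 0.21, limma adjusted p = 2.77e-04), a 2.64-fold higher mean. Smarca4 had 120.4, 128 and 129 TPM in the FGOs and 144, 342 and 706 in the embryos, again apart (log2 fold change 1.39, SE 0.38, limma adjusted p = 0.0155). That call was lost with each K36M FGO library left out, at a limma adjusted p of 0.0617 to 0.0713. Chd4, at 238, 244 and 237 TPM in the FGOs and 156, 208 and 379 in the embryos, had a log2 fold change of -0.15 (95% interval -0.76 to 0.46).

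Smarcb1 spread most widely among the K36M oocyte-derived embryos. It had 169, 176 and 168 TPM in the K36M FGOs and 4.45, 54.6 and 130.1 (lowest, median, highest) in the embryos, every embryo being lower. The log2 fold change was -2.31, but the spread left a limma adjusted p of 0.0698 (SE 0.88), which was 0.0442 without K36M two-cell replicate 7, the highest embryo, and 0.0494 under median-of-ratios scaling. Under no other alternative did Smarcb1 pass here. Ctcf had 147, 217 and 206 TPM in the FGOs and 189, 296 and 347 in the embryos, with a log2 fold change of 0.59 (95% interval 0.07 to 1.12, limma adjusted p = 0.0926). Without K36M two-cell replicate 6, the lowest embryo for Ctcf, it was 0.68 (limma adjusted p = 0.0392), and Ctcf passed under no other alternative here. Brwd1, at 181, 203 and 205 TPM in the FGOs and 128, 188 and 233 in the embryos, had a log2 fold change of -0.07 (95% interval -0.60 to 0.47).

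**Figure D2:**
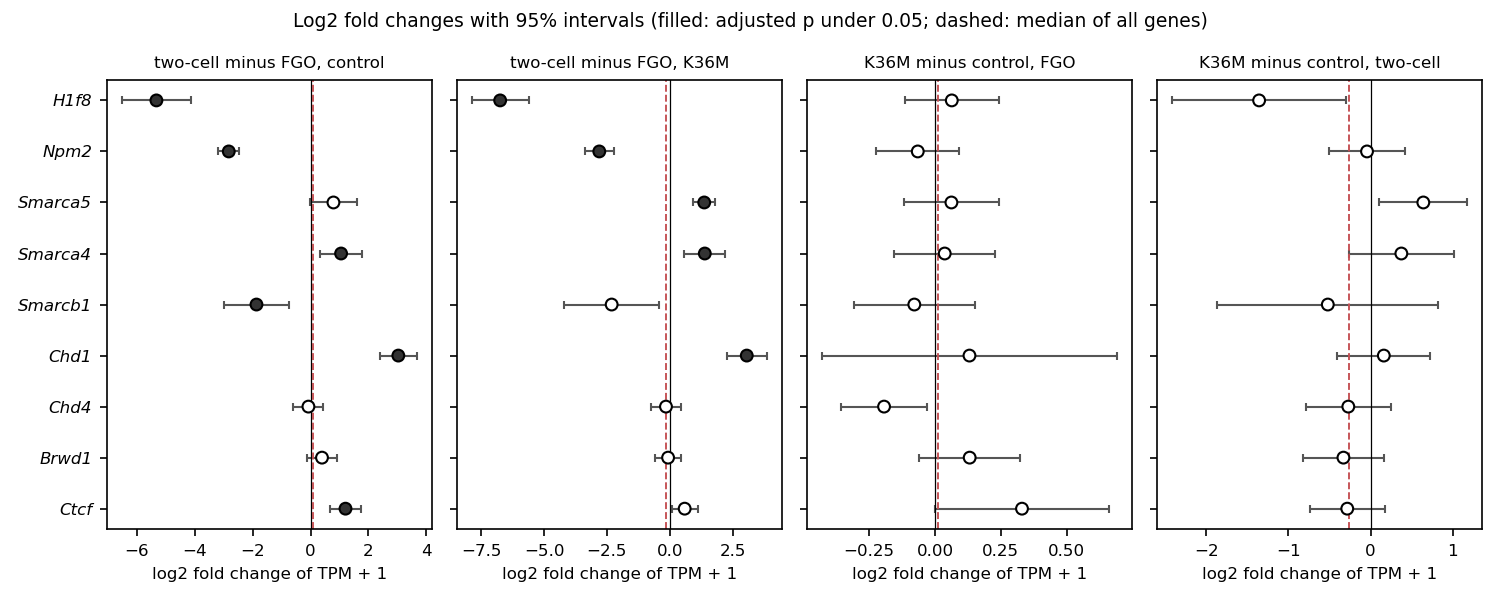
Log2 fold changes of TPM + 1 (horizontal axis, 1 scale per panel) of the 9 genes in 4 comparisons, with 95% intervals from limma; filled points passed an adjusted p of 0.05 and the dashed line is the median of all genes. In both stage comparisons H1f8 and Npm2 lie to the left and Chd1 to the right, and no point is filled in the comparisons of K36M with control.

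The next comparison asked whether K36M in the oocyte changed the stored messages of these factors. In FGOs none of the 9 genes passed, and over all genes 1 of 13775 did (0.00726%), with 1446 (10.5%) at an unadjusted p under 0.05. Chd4 was the member whose libraries did not overlap, at 263, 278 and 282 TPM in control and 238, 244 and 237 in K36M FGOs. Its log2 fold change was -0.19 (SE 0.07, 95% interval -0.36 to -0.03, limma unadjusted p = 0.0257, limma adjusted p = 0.428), and 8.17% of all genes tested were lower without overlap. Ctcf had 155, 156 and 136 TPM in control and 147, 217 and 206 in K36M FGOs, so that K36M FGO replicate 1 lay among the controls and the other 2 above them. The log2 fold change of Ctcf was 0.33 (SE 0.15, 95% interval -0.0004 to 0.66, limma adjusted p = 0.474). Without K36M FGO replicate 1 it was 0.50 (limma adjusted p = 0.0435), in a fit where 300 genes passed.

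The other 7 genes differed by at most 0.13 on the log2 scale between K36M and control FGOs. For H1f8 the difference was 0.06 (95% interval -0.11 to 0.24), for Npm2 -0.07 (-0.22 to 0.09), for Smarca4 0.04 (-0.16 to 0.23), for Smarca5 0.06 (-0.12 to 0.24) and for Brwd1 0.13 (-0.06 to 0.32). The interval was widest for Chd1, the least abundant member, at -0.43 to 0.69 around 0.13, and for Smarcb1 it ran from -0.31 to 0.15 around -0.08. The median over the 9 members was 0.06, beside 0.01 over all genes. Summed oocyte markers were lower in the K36M FGOs, without overlap, as given above. Granulosa and cumulus markers had a median sum of 192 TPM there beside 128 in the controls. Mean Nr5a2 was at 118 and 71.0 TPM, so most of each sum was this 1 gene. The part of these markers in the differences was not tested.

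Between K36M oocyte-derived and control two-cell embryos, again none of the 9 genes passed, and none of 17362 genes did (0%) in limma, with 1338 (7.71%) at an unadjusted p under 0.05. Over all genes the median difference was -0.26 on the log2 scale, and over the members it was -0.27. The median over all genes was -0.01 after quantile normalization and -0.17 after median-of-ratios scaling, so each member's difference is also given relative to the unscaled median. These relative values are not results of a rescaled fit. For every member but Smarcb1 they lie above the highest value under the 21 alternatives, which was 0.80 for Smarca5, 0.55 for Smarca4, 0.31 for Chd1 and -0.16 for Chd4. Genes above 0 TPM made up 46.2% to 66.1% of the table in the control embryos, with control two-cell replicate 1 the highest, and 41.6% to 56.8% in the K36M oocyte-derived embryos, and the part of this in the differences was not tested. H1f8 differed the most: its lowest, median and highest values were 25.3, 114 and 241 TPM in 7 control embryos and 11.1, 47.0 and 95.3 in 8 K36M oocyte-derived embryos. The mean of the latter was 36.6% of the control mean, with a log2 fold change of -1.36 (SE 0.51, 95% interval -2.42 to -0.29, limma unadjusted p = 0.0145, limma adjusted p = 0.568), or -1.10 relative to the median of all genes. The groups overlapped, and 10.3% of all genes tested had a lower fold change. Summed oocyte markers overlapped broadly between these groups, at 515 to 1819 TPM and 508 to 1641 TPM.

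Smarca5 differed in the other direction. It had 157, 458 and 810.0 TPM in the control and 483, 650.0 and 899 in the K36M oocyte-derived embryos, a 1.45-fold higher mean. The log2 fold change was 0.64 (SE 0.26, 95% interval 0.11 to 1.18, limma unadjusted p = 0.0205, limma adjusted p = 0.578), or 0.90 relative to the median of all genes. Without control two-cell replicate 1, the lowest control embryo for Smarca5, it was 0.41 (limma adjusted p = 0.818). For Smarca4 the difference was 0.38 (95% interval -0.27 to 1.02) and for Chd1 0.16 (-0.40 to 0.73), or 0.63 and 0.42 relative to the median. Chd4, Brwd1 and Ctcf, at -0.27, -0.33 and -0.28, lay close to the median of all genes, and relative to it were at -0.01, -0.07 and -0.03. Npm2 differed by -0.04 (95% interval -0.51 to 0.42), or 0.21 relative to the median, and Smarcb1 had the widest interval, -1.87 to 0.83 around -0.52, or -0.26 relative to the median. Its mean was 94.7% of the control mean, and the difference on the log2 scale was -0.14 without K36M two-cell replicate 1, -0.21 without K36M two-cell replicate 2 and -0.85 without control two-cell replicate 7.

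Whether K36M acted differently in the embryos and the FGOs was tested as an interaction over all 21 libraries. None of 17358 genes passed (0%) in limma, and 199 (1.15%) had an unadjusted p under 0.05, none of them a member. That share is lower than the threshold would give without any effect. The fit takes 1 variance per gene over all groups, but the groups differed in spread. The median SD over genes on the log2 scale was 0.19 in control and 0.25 in K36M FGOs. In control and K36M oocyte-derived embryos it was 1.26 and 1.45. The p-values of this fit are thus poorly calibrated, and a lack of calls does not show that K36M acted alike at both stages. The interaction was -1.42 for H1f8 (SE 0.80, limma unadjusted p = 0.0877), -0.61 for Ctcf (limma unadjusted p = 0.0871) and 0.58 for Smarca5, each with a limma adjusted p of 1.00. The fall of H1f8 from FGO to embryo was thus not shown to differ between the genotypes, although its values were -5.33 in control and -6.75 in K36M material.

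The members also differed in how much they varied from embryo to embryo. Within the control embryos the highest value was 1.56 times the lowest for Npm2, 1.89 times for Brwd1 and 2.03 times for Chd4, but 5.15 times for Smarca5, 8.69 times for Smarcb1 and 9.53 times for H1f8. In the K36M oocyte-derived embryos it was 1.82 times for Brwd1, 1.83 times for Ctcf and 1.86 times for Smarca5, against 8.55 times for H1f8 and 29.2 times for Smarcb1. The wide ratios rest in part on 1 embryo: without control two-cell replicate 7 they were 2.38 times for Smarcb1 and 4.27 times for H1f8, and without control two-cell replicate 1 the ratio of Smarca5 was 2.28 times. Without K36M two-cell replicate 1 they were 5.02 times for H1f8 and 19.4 times for Smarcb1. On the log2 scale the SD of Npm2 among control embryos was 0.22, and 0.572% of the 16613 genes that reached a mean of 1 TPM there had a smaller one. These genes were not matched for level, and by mean TPM Npm2 was above 98.8% of all genes in the control embryos. Smarcb1 was the 1 member whose SD among K36M oocyte-derived embryos (1.70) exceeded the median SD of all genes (1.45). The differences in spread were not tested.

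The order of levels in the embryos differed from that in FGOs. In the control embryos the order by mean TPM per length was Smarca5, Npm2, Ctcf, Chd1, Smarca4, Chd4, Brwd1, H1f8 and Smarcb1, from 454 down to 56.8 TPM, and in the K36M oocyte-derived embryos it was Smarca5, Npm2, Smarca4, Chd1, Ctcf, Chd4, Brwd1, Smarcb1 and H1f8, from 659 down to 45.5 TPM. The ranges of every pair of neighbours overlapped in both orders, though Brwd1 was above H1f8 in 6 of 7 control embryos and above Smarcb1 in 8 of 8 K36M oocyte-derived embryos. For the other neighbours in these orders, the higher gene was above the next in 3 to 6 embryos of each group. The 9 members together held 0.208% to 0.298% of all TPM in control and 0.186% to 0.310% in K36M oocyte-derived embryos, and H1f8 and Npm2 together at most 0.076% in any of them.

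The partners of these factors in the same complexes and families were followed as 9 lists of 108 genes in all, which were chosen with earlier results of these data known. From control FGOs to control embryos 106 of the 108 were tested, of which 23 were higher, 16 were lower and 67 did not pass (background 30.5%), with a median log2 fold change of 0.13 beside 0.08 for all genes. From K36M FGOs to K36M oocyte-derived embryos 22 were higher and 10 lower of 106 (background 25.3%), with a median of 0.11 beside -0.16. Between genotypes none of them passed in limma, with 8 of 103 in FGOs (10.5% of all genes) and 6 of 106 in embryos (7.71% of all genes) at an unadjusted p under 0.05.

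Among the partners of Chd4 in NuRD changes went both ways. Of 12 subunits 4 rose and 4 fell in the controls, with a median of -0.19. Mta2 rose by 5.69 on the log2 scale, Cdk2ap1 by 4.52 and the deacetylase Hdac1 by 3.38, and in K36M material they rose by 5.43, 4.21 and 4.18. The histone-binding subunit Rbbp7 fell by 1.90 in the controls and by 1.71 in K36M material, and Mta1 fell by 1.31 in the controls. The call of Mta1 was lost with each control FGO library left out and with control two-cell replicate 4 added (limma adjusted p up to 0.108). Of the others counted in the controls, Mta3 (-1.30) lost its call under 8 of 16 alternatives, each control FGO library and 4 of the embryos left out among them (up to 0.149). Gatad2b (-0.92) lost its call without control FGO replicate 1 or 3 (up to 0.0582) and Gatad2a (0.91) without control FGO replicate 3 (0.0527). Chd4 itself was at -0.07 and -0.15, as given above.

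Of the 10 ISWI partners of Smarca5, 4 rose and 1 fell in the controls (median 0.46), and 4 rose and 1 fell in K36M material. Rsf1, the partner in the RSF complex, rose by 2.65 in the controls and by 2.79 in K36M material, Baz1a (ACF1) by 2.27 and 2.59, and Bptf of the NURF complex by 1.02 and 0.95, whereas Baz2b fell by 1.51 and 0.94. The other partner counted as higher, Baz2a, was at 0.85 and 0.90 and lost its call under 6 of 16 alternatives in the controls, each control FGO library left out among them, and under 13 of 16 in K36M material, both scalings and each K36M FGO library left out among them (limma adjusted p up to 0.123 and 0.278). Of 25 other SWI/SNF subunits tested, 4 rose and 1 fell in the controls, with a median of 0.34. Bicral rose by 2.13 and Smarcc1, a core scaffold subunit like Smarcb1, by 1.63, while Ss18 fell by 2.09. Of the 8 other CHD ATPases, Chd8 rose by 1.02 in the controls while Chd9 fell by 1.75 and Chd1l by 4.34, with a median of -0.51. The call of Chd8 in the controls was lost under 12 of 16 alternatives, among them both scalings, no filter on low values, each control FGO library left out and 5 of the embryos left out (limma adjusted p up to 0.132). That of Baz2b in the controls was lost with each control FGO library left out, without control two-cell replicate 3 and with replicate 4 added (up to 0.117). Of the 4 SWI/SNF subunits that rose in the controls, Bicral alone kept its call without control FGO replicate 1 or 2: Smarcc1 (limma adjusted p up to 0.127), Arid2 (0.74 on the log2 scale, lost under 6 of 16 alternatives, both scalings among them, up to 0.118) and Arid1a (0.50, lost under 9 of 16, both scalings and control two-cell replicate 5 or 8 left out among them, up to 0.241) lost theirs. Baz2b in K36M material lost its call without any 1 of the 3 K36M FGO libraries or of 5 of the embryos (limma adjusted p up to 0.179).

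Linker histones other than H1f8 were also measured. Of 8 tested, H1f5 and H1f1 rose in the controls, by 2.07 and 1.92, and 6 did not pass, with a list median of -0.28. In K36M material H1f1 rose by 1.75 and the median was -1.44. Among the 5 other chaperones, Set rose by 2.92 in the controls and by 3.46 in K36M material, where Npm1 rose by 1.17 and Nap1l1 by 0.89. The call of Nap1l1 was lost without K36M FGO replicate 1 or 3 (limma adjusted p up to 0.0720). Of the 15 cohesin genes and relatives of Ctcf, 3 rose in the controls, namely Wapl (1.70), Rad21 (1.65) and Pds5a (1.64), and 3 fell, namely the germline subunits Rad21l (-3.47) and Smc1b (-1.49) and the core subunit Smc3 (-1.07). Of the Brwd1 relatives, Brwd3 rose by 0.91 in the controls and by 1.05 in K36M material, where Phip fell by 1.18. The INO80, SRCAP and TIP60 subunits had 3 that rose and 5 that fell of 21 in the controls, among them the ATPase Ruvbl1, which rose by 2.73, and Dmap1, which fell by 3.23. Actr5 (3.03) lost its call under 10 of 16 alternatives, each control FGO library and 5 of the embryos left out among them (limma adjusted p up to 0.115), Actr8 (-2.82) with each control FGO library left out (up to 0.0931) and Vps72 (-1.58) without control FGO replicate 2 or 3 (up to 0.0658). In the controls H1f5 lost its call under 12 of 16 alternatives (limma adjusted p up to 0.229), among them a pseudocount of 0.1, no filter, median-of-ratios scaling and 5 of the embryos left out, and Brwd3 under 9 of 16 (up to 0.145), among them both scalings and 2 of the embryos left out. With each control FGO library left out these 2 genes, Smc1b and Smc3 lost their calls (up to 0.133 for Smc1b and 0.120 for Smc3 over their alternatives), and with each K36M FGO library left out Phip and Brwd3 lost theirs in K36M material (up to 0.119 and 0.129). Ruvbl1 in the controls lost its call when control two-cell replicate 4 was added (limma adjusted p = 0.0928).

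**Figure D3:**
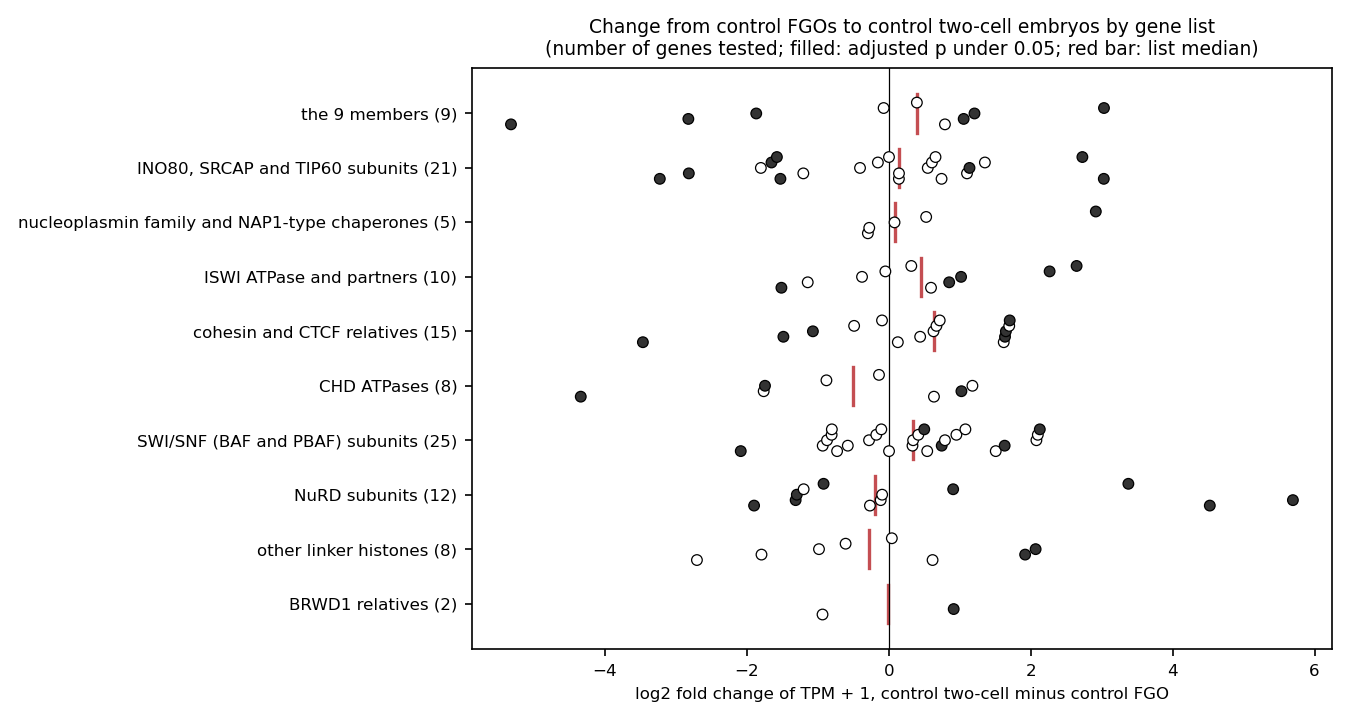
Log2 fold change of TPM + 1 from control FGOs to control two-cell embryos (horizontal axis) for the 9 members and the 9 lists of complex partners (vertical axis, number tested in brackets), 1 point per gene. Filled points passed an adjusted p of 0.05 and red bars are list medians; H1f8 at -5.33 and the NuRD subunit Mta2 at 5.69 are at the ends.

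Genes with the most similar pattern to each member were found by Pearson correlation of log2(TPM + 1) across the 21 libraries, over 17358 genes. Since the libraries form a cluster for each stage, the value over the 15 embryos alone is given second, and both are descriptions. For H1f8 the nearest genes were Figla, an oocyte transcription factor (0.97 over all libraries, 0.74 over the embryos), and Ccno (0.96 and 0.78). For Npm2 they were Smim20 (0.98 and 0.58) and Nudt1 (0.97 and 0.64), and for Chd1 Cdk9, the kinase of the elongation factor P-TEFb (0.98 and 0.85), and Tnpo3 (0.98 and 0.83). Smarca5 was nearest to the chaperone gene Hsp90ab1 (0.94 and 0.89) and the translation initiation factor Eif3a (0.93 and 0.89), and Smarca4 to Def8 (0.92 and 0.91) and Wdr43 (0.92 and 0.85). For Smarcb1 the nearest were Arrdc1 (0.87 and 0.79) and Fam3c (0.86 and 0.75), and for Ctcf Usp36 (0.88 and 0.58) and Atad2b (0.88 and 0.71). Over all libraries the values were lower for Brwd1, with Akt1 (0.81 and 0.79) and Tmem250-ps (0.80 and 0.80), and for Chd4, with the cohesin loader Nipbl (0.78 and 0.80) and Ybx3 (0.77 and 0.88), whereas over the embryos alone the lowest were those of Npm2 and Ctcf, with Smim20 and Usp36.

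In the RefSeq annotation of GRCm38.p6, Chd1 overlaps 5830433I10Rik on the other strand, Npm2 overlaps Gm52133 on the other strand, Chd4 overlaps Mir7045 and Gm23751, and Ctcf overlaps Gm5914, Gm5915 and Gm33578. The strand setting of the authors' counting was not given in the sources used here, so the values of these 4 genes may include reads of their neighbours. The other 5 genes overlap no annotated gene.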

How the data were processed

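RNA was sequenced from 6 FGO libraries and 16 single late two-cell embryos prepared with a stranded SMART-Seq kit, and all 22 columns of the table were matched to the labels by name. TPM values as deposited are the unit used here: the authors cut adaptor bases with Trim Galore, aligned to mm10 with HISAT2, dropped ribosomal reads (bedtools), ran featureCounts per gene and made their own comparisons in edgeR. The gene annotation and the strand setting behind the TPM values were not given in the sources used here. No count test was run, since TPM are not counts and keep no reads per gene. The total reads listed by the study for each library entered no fit.

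Log2(TPM + 1) was modelled by limma 3.58.1 (R 4.3.3) using lmFit and then eBayes with its trend option. Genes entered a fit if their TPM averaged 1 or more over its libraries, and p-values were two-sided and adjusted by Benjamini-Hochberg over all genes tested, with a threshold of 0.05. FGOs, embryos, control and K36M libraries were compared in 4 separate fits, and the interaction of genotype and stage was tested over all 21 libraries. The script was tested on simulated data, in which each gene had 1 spread for all groups. Positions and promoters were those of RefSeq GRCm38.p6, in which 26167 of the 26214 symbols (99.8%) were found. Other steps used Python 3.11.15, numpy 2.4.6, pandas 2.3.3 and matplotlib 3.10.9.

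The rule for the members reads no measured value, but they and the lists of partner and marker genes were chosen with earlier results of these data known. Named were the 9 members, H3f3b, up to 4 genes per direction, list and comparison past the threshold, and the 2 genes most correlated with each member. The alternatives were a pseudocount of 0.1, no filter on low values, quantile normalization, median-of-ratios scaling, the replicate number as a block, each library left out in turn, and control two-cell replicate 4 added. The ChIP-seq, CUT&RUN and bisulfite libraries of the series were not analysed here.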

Additional observations from a re-analysis of the deposited data

Results flagged for a closer look

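Control two-cell replicate 4 entered no main comparison, and 3 of the 9 genes were higher in it than in any of the 7 control embryos compared. Over the 16613 genes that reached a mean of 1 TPM in those embryos, 18.1% were above their range in this library and 16.3% below it. H1f8 had 350.4 TPM there, beside 25.3 to 241 in the other control embryos. Npm2 had 1089 TPM, beside 321 to 500.1, and Chd4 had 433 TPM, beside 183 to 373. Smarca4 at 145 TPM and Chd1 at 153 TPM were below the other control embryos, and Smarca5, Smarcb1, Brwd1 and Ctcf lay inside their range. Its oocyte markers summed to 1802 TPM, inside the range of 515 to 1819 of the other control embryos, with Figla listed at 0, and its two-cell markers summed to 267 TPM, below their range of 367 to 1780, with Zscan4c, Zscan4d, Zscan4f and Usp17lc listed at 0. The part of these markers in the 3 values was not tested.

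In the groups of 7 control and 8 K36M oocyte-derived embryos, none of 18 sets of values stood out by the distance of its highest or lowest embryo from the next, where chance gives 0.9.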

How the results depend on the processing

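Over the 9 genes, 5 comparisons and all alternatives, 769 of 819 values kept their direction and their side of the threshold, 14 lost a call, 5 gained one and 31 changed sign. The number of genes past the threshold between K36M and control FGOs, 1, was 0 with a pseudocount of 0.1, with no filter on low values and with the replicate block, and from 0 to 300 with 1 library left out, the highest being without K36M FGO replicate 1, when 1 member (Ctcf) passed and otherwise 0. Between embryos, 0 genes became 0 to 1. From control FGOs to control embryos 5159 became 3015 to 5966 with 1 library left out, and in K36M material 4217 became 2385 with the replicate block and 2342 to 4439 with 1 library left out. The interaction gave 13 genes with no filter and 0 to 3 with 1 library left out. Between stages, any FGO library left out lowered the count much alike. It was 3015, 3056 and 3054 without control FGO replicate 1, 2 and 3, and 2342, 2373 and 2382 without K36M FGO replicate 1, 2 and 3. These fits take 1 variance per gene over FGOs and embryos, and fewer FGO libraries give it more weight in the SE. A call lost with each FGO library left out thus singles out no FGO library. The replicate block leaves embryos out, as given below. The cause of the other changes was not tested.

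Sign changes were as follows. Npm2 between embryos was 0.064 under median-of-ratios scaling and -0.15 to 0.035 with 1 library left out. Chd4 from control FGOs to embryos was 0.018 with control two-cell replicate 4 added and -0.16 to 0.010 with 1 library left out. With 1 library left out, Chd1 between FGOs ran from -0.095 to 0.32, Smarcb1 from -0.13 to 0.022, and Brwd1 across stages in K36M material from -0.13 to 0.011. In the interaction, Npm2 was -0.088 under quantile normalization, -0.14 with control two-cell replicate 4 added and -0.085 to 0.10 with 1 library left out, Chd4 was 0.074 under median-of-ratios scaling and -0.19 to 0.0093 with 1 library left out, Chd1 ran from -0.16 to 0.26, and H3f3b was 0.064 under median-of-ratios scaling, 0.29 with control two-cell replicate 4 added and -0.19 to 0.092 with 1 library left out.

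Scaling moved the median of all genes, which from K36M FGOs to K36M oocyte-derived embryos was -0.16, 0.17 after quantile normalization and -0.28 after median-of-ratios scaling, and from control FGOs to control embryos 0.08, and -0.10 after median-of-ratios scaling. Deviations of same-numbered libraries correlated at -0.10 to 0.10, so the numbers were not taken as pairs; with the replicate block Smarca4 lost its call in both stage comparisons (limma adjusted p = 0.118 and 0.215), and of the partner genes named by rule 8 of 38 lost theirs in the controls and 20 of 32 in K36M material, among them Bptf, Rbbp7, Npm1 and H1f1 (limma adjusted p = 0.0938, 0.0540, 0.0671 and 0.0690). In the stage fits with this block, an embryo whose number no FGO library shares is taken up by its own block term and no longer counts. The calls lost with the block thus rest on fewer embryos. TPM keeps no read count per gene, and with 3 FGO libraries a group, leaving 1 out leaves 2.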
